A study of Mus musculus with 13 samples.

Results

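T cell receptor (TCR) gene segments were measured in RNA from thymocytes of mice that carry the rearranged Lm54 TCR as a transgene. Members were every gene whose symbol begins with Tra, Trb, Trg or Trd followed by v, d, j or c and whose biotype in the GENCODE M21 annotation is a TR_V, TR_D, TR_J or TR_C gene, with pseudogenes left out. This gave 214 of the 35906 genes with a transcript in the files, of which 136 are variable (V), 4 diversity (D), 70 joining (J) and 4 constant (C) genes. By locus and type, 108 members are Trav, 51 Traj, 22 Trbv, 13 Trbj, 5 Trdv and 4 Trgj genes, and the rest are the 2 genes each of Trbd, Trbc, Trdd and Trdj together with Trac, Trdc and 1 Trgv gene. A further 10 genes of the gamma locus carry Tcrg symbols in this annotation and were kept as a separate list.

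The cells were sorted M2 CD4 single-positive (CD4SP) thymocytes, the CD69- MHCI+ stage just before export, and each of the 13 libraries came from 1 mouse. Unstimulated cells came from 5 CtslΔTEC and 4 control mice, and cells exposed for 4 h to plate-bound LLO:Iab (1 µg/ml) together with soluble anti-CD28 (250 ng/ml) came from 2 CtslΔTEC and 2 control mice. All mice were Lm54Tg, Rag1-/- and of the C57BL/6J strain, so the transgenic TCR was present and the recombinase was disrupted in every group, controls included. In CtslΔTEC mice Foxn1-cre, which is active in thymic epithelium, deletes the floxed Ctsl gene that encodes the protease cathepsin L, and the thymocytes themselves keep it. The labels call the controls Ctsl fl/fl and wild type, whereas the study writes Ctsl+/+, and the labels give no age. The labels describe polyadenylated RNA and the study rRNA depletion, which bears on unspliced germline transcripts and was not settled here.

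A TCR is a pair of chains, alpha with beta or gamma with delta, and each chain gene is assembled in a developing lymphocyte by joining a V, in beta and delta a D, and a J segment, which is then spliced to a C region. The Tra locus runs from the Trav genes through the Traj segments to Trac and holds the Trd segments within it, and the Trb locus ends in a pair of clusters, each with D, J and C genes. Segments are also transcribed before they are joined. Such germline transcripts start at promoters upstream of the most distal Traj and at the D beta segments, and they read through J segments toward the C gene without encoding a receptor.

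The study assembled the Lm54 receptor from Trav14d-1 with Traj49 and Trbv5 with Trbj2-7, cloned into cassette vectors for the alpha and beta chain. Trav14d-1 lies at chr14:52855614-52856166, Traj49 at chr14:54168686-54168747 and Trac at chr14:54220521-54224206 of GRCm38. Trbv5 lies at chr6:41062332-41062803 and Trbj2-7 at chr6:41543810-41543856 of the same build, on the plus strand like the alpha segments. The files count reads on these germline gene models, so a read of the transgene and a read of the endogenous segment cannot be told apart, and neither can fewer cells of a type and less RNA per cell. The J segments of the transgene are printed below with Trbj1-1 (chr6:41533864-41533911), the most abundant J segment in the files, and capitals mark the codons of the Phe-Gly-X-Gly motif that 57 of the 70 J members hold.

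Traj49: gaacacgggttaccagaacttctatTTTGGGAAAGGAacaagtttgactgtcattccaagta

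Trbj2-7: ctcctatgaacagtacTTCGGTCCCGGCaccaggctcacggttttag

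Trbj1-1: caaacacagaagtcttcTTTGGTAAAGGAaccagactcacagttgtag

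V and C members are harder to separate than J members, because kallisto assigned reads by runs of 31 bases and 111 of the 214 members share at least 1 such run with another. Trav14n-1 (chr14:53166626-53167178) is identical to Trav14d-1 over all 364 coding bases, so each received the same estimated count in every library. Trav14-1 (chr14:53554022-53554558) is identical to Trav14d-1 at 348 of 364 coding bases (95.6%), and Trbc1 (chr6:41538218-41539881) is identical to Trbc2 (chr6:41546730-41548352) at 495 of 518 coding bases. A window of 75 coding bases of each pair, GRCm38 plus strand, is printed because the results turn on telling these genes apart, with the differing bases in capitals.

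Trav14d-1: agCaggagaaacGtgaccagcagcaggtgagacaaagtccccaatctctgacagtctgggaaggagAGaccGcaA

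Trav14-1: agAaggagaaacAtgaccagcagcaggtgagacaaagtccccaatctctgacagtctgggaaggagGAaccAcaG

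Trbc1: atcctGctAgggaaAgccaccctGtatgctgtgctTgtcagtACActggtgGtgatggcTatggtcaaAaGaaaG

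Trbc2: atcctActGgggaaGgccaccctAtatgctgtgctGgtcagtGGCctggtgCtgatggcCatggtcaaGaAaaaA

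Depth, as the sum of estimated counts, was 25692380 to 39127833 without stimulation and 8085463 to 27184520 with it. Of the 214 members, 84 had at most 3 counts in every library, 45 of them no count at all, and 109 reached 10 counts in at least 1. Cd4 lay between 744.8 and 1156 counts per 1000000 (CPM, scaled by trimmed mean of M values over all 13 libraries) in every library. Thymocytes positive for both CD4 and CD8 express Cd4 too, so its level does not separate them from CD4SP cells. Cd8b1 had 118.2 to 153.2 CPM in unstimulated CtslΔTEC and 27.4 to 34.7 CPM in unstimulated control cells. Cd8a had 23.1 to 33.5 CPM and 4.10 to 4.65 CPM. The dates attached to the files are 2 for unstimulated cells and another for all stimulated cells, so that stimulation and date cannot be told apart. Y-linked transcripts summed to 341 to 470 CPM in all 5 unstimulated CtslΔTEC mice and in control mouse 3, and to 6.19 to 8.36 CPM in control mice 1, 2 and 4, so the sex of the mice went nearly with genotype in unstimulated cells. In stimulated CtslΔTEC mice 6 and 7 these transcripts summed to 5.81 and 506 CPM. Stimulated control mice 5 and 6 had 4.39 and 388 CPM, so each stimulated group held both levels.

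In 3 unstimulated libraries, those of CtslΔTEC mice 2 and 5 and control mouse 2, beta chain segments stood apart from the rest. Trbv5 reached 2591 to 2757 CPM there against 289.5 to 422.7 CPM in the 6 other unstimulated libraries, and Trbc2 reached 7037 to 7993 CPM against 1713 to 2088 CPM. Trbv13-1 (chr6:41116007-41116468), a V beta gene that is not part of Lm54 and shares no run of 31 bases with Trbv5, had 59.87 to 104.6 CPM in these 3 libraries and 0.0899 to 0.531 CPM in the other 6. The ranges did not overlap for any of these genes. Trbv12-1 behaved in the same way, at 7.19 to 13.2 CPM against 0 to 0.037 CPM.

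In the same 3 libraries Trac and Trav14d-1 were lower than in the 6 others. Trac had 488.8 to 711.4 CPM against 757.4 to 953.1 CPM in the 6 others, and Trav14d-1 had 50.1 to 124.6 CPM against 152.6 to 191.3 CPM. This did not hold for Traj segments in sum or for Trav14-1. The summed Traj level was 91.2, 91.2 and 56.1 CPM in these 3 libraries and 56.2 to 94.2 CPM in the 6 others, and Trav14-1, at 11.4, 10.1 and 4.59 CPM, had its highest levels of each unstimulated genotype group there. Trbc1 did not separate, with 978 to 1130 CPM against 1015 to 1163 CPM. All 3 libraries are of the second date, which also holds 3 libraries that do not stand apart, and the labels give no difference between them. Counts of members called are therefore given below with and without these 3 libraries, which were picked after the values were seen.

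**Figure D1:**
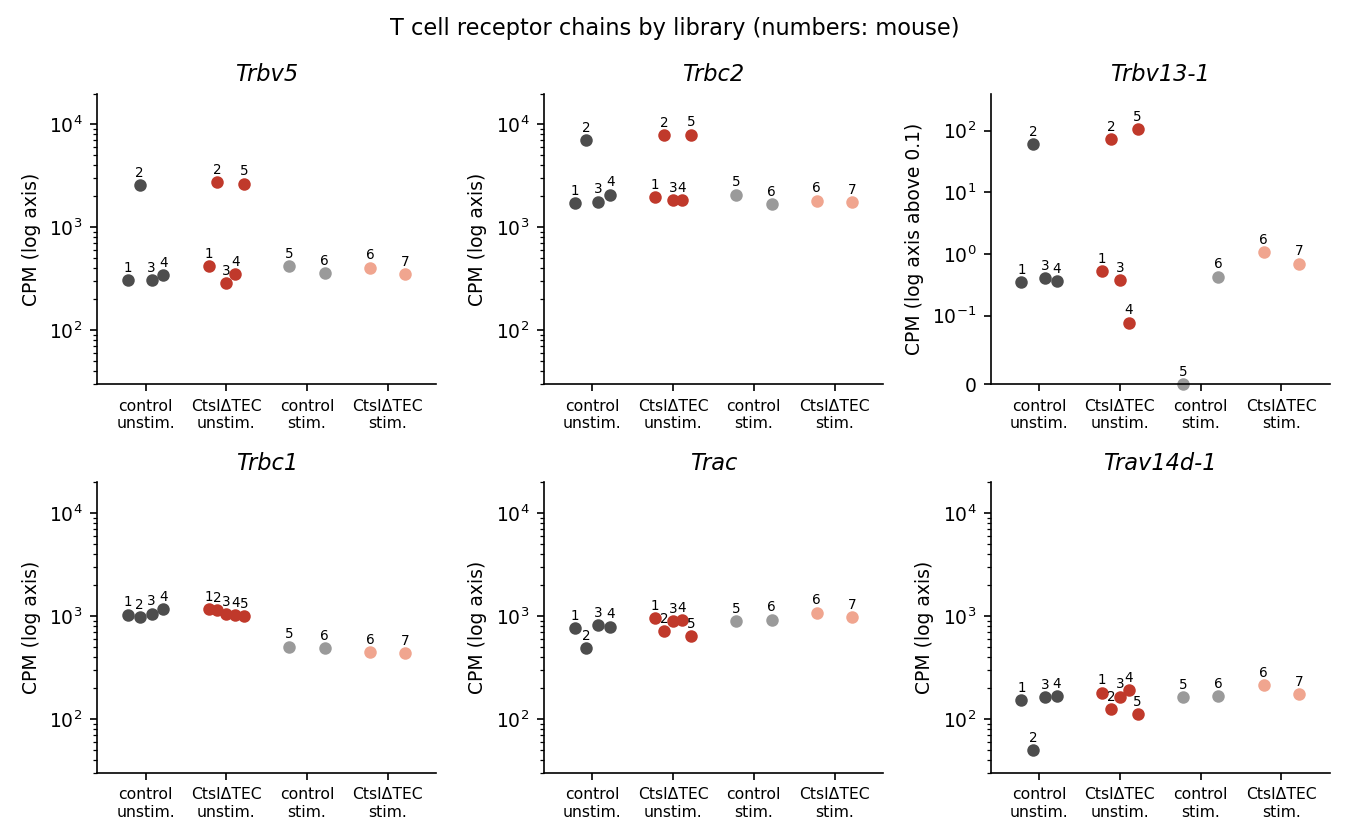
Level of 6 TCR genes in each library, in CPM on a log axis, grouped by genotype and stimulation, with 1 point per mouse. CtslΔTEC mice 2 and 5 and control mouse 2 lie above all other libraries for Trbv5, Trbc2 and Trbv13-1 and below the other unstimulated libraries for Trac and Trav14d-1.

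The Lm54 V segments carried most V counts in every library. Trbv5 held 98.2% ± 1.80 (SD, n = 5) of all Trbv counts in unstimulated CtslΔTEC cells and 98.4% ± 0.7102 (SD, n = 4) in control cells, and 99.7% ± 0.148 and 99.8% ± 0.0943 (SD, n = 2 each) after stimulation. Trav14d-1 with its identical copy Trav14n-1 held 90.3% ± 2.80 of all Trav counts in unstimulated CtslΔTEC cells and 90.4% ± 6.53 in control cells, and 99.2% ± 0.143 and 98.9% ± 0.180 after stimulation. Trav14d-1 alone was assigned 45.2% in both unstimulated groups, because the count of the shared sequence was split evenly.

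The J segments of Lm54 held far smaller shares of their classes. Traj49 held 5.82% ± 0.849 of Traj counts in unstimulated CtslΔTEC cells and 5.88% ± 0.163 in control cells. Trbj2-7 held 3.62% ± 1.83 and 2.19% ± 0.612 of Trbj counts. It was higher in the 3 libraries that stood apart, with 55.4, 64.4 and 25.6 CPM in CtslΔTEC mice 2 and 5 and control mouse 2 against 14.9 to 23.7 CPM in the other 6 unstimulated libraries, and 36.9% to 40.8% of Trbj2 counts against 19.5% to 26.3%. The 7 Trbj1 segments together held 88.8% ± 2.89 and 91.3% ± 1.90. J members are 46 to 66 bases long with effective lengths of 11.6 to 34.2 bases, and how many reads of a joined transcript were assigned to its J segment was not tested. Per length, in TPM (transcripts per 1000000), Trbc2 had a median of 6690 in unstimulated CtslΔTEC and 5879 in control cells, Trbv5 4027 and 3408, Trac 2039 and 1759, and Trav14d-1 1256 and 1215.

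**Figure D2:**
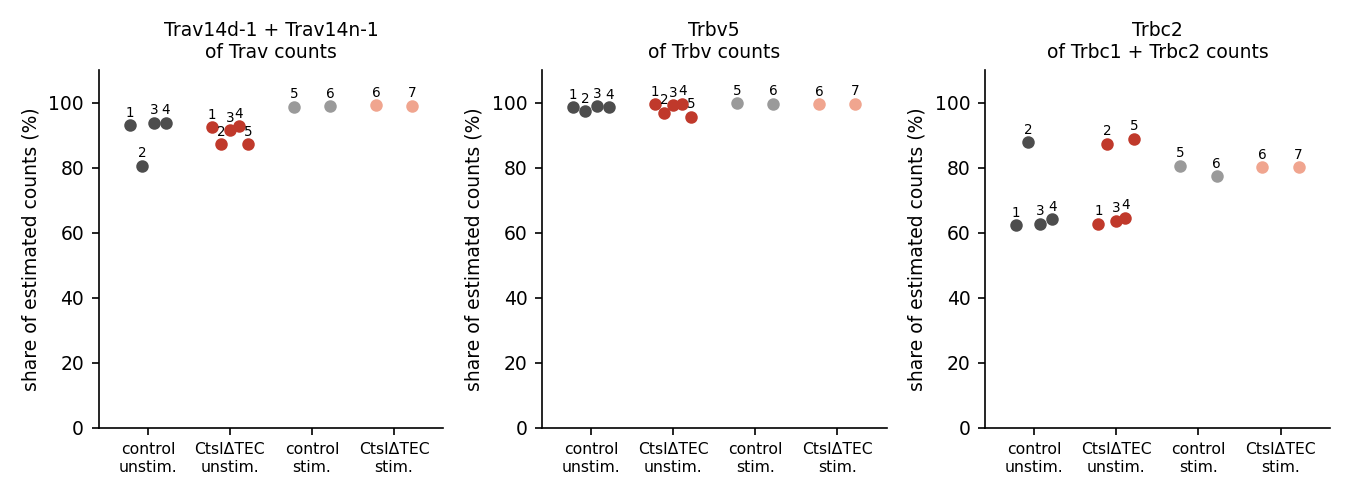
Share of counts, in percent, taken by Trav14d-1 with Trav14n-1 among Trav genes, by Trbv5 among Trbv genes and by Trbc2 among Trbc genes, with 1 point per mouse. Unstimulated V alpha shares run from 80.6% to 93.9% and stimulated ones from 98.8% to 99.3%, and the Trbc2 share separates the 3 libraries at 87.4% to 89.0% from the 6 other unstimulated ones at 62.4% to 64.6%.

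Between genotypes, the Lm54 V segments and the alpha and beta constant genes did not pass the test in unstimulated cells. Trbv5 counted 422.7, 2757, 289.5, 353.6 and 2653 CPM in CtslΔTEC mice 1 to 5 and 307.4, 2591, 306.0 and 346.2 CPM in control mice 1 to 4. Trbc2 counted 1963, 7850, 1828, 1851 and 7993 CPM against 1713, 7037, 1784 and 2088 CPM. The groups overlapped for both genes, with log2 fold changes (CtslΔTEC minus control) of 0.55 ± 0.86 (SE) for Trbv5 and 0.45 ± 0.58 for Trbc2 by edgeR's quasi-likelihood test. Without the 3 libraries these were 0.16 ± 0.14 and 0.02 ± 0.10.

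Trac counted 953.1, 711.4, 890.0, 908.4 and 634.9 CPM in CtslΔTEC and 757.4, 488.8, 816.1 and 787.9 CPM in control cells, a log2 fold change of 0.20 ± 0.16. Trav14d-1 had 179.7, 124.6, 164.3, 191.3 and 110.7 CPM against 152.6, 50.1, 163.0 and 166.8 CPM, a log2 fold change of 0.21 ± 0.30. Trbc1 was closest between genotypes, at 1163, 1130, 1040, 1015 and 992.0 CPM against 1033, 978.0, 1056 and 1163 CPM and a log2 fold change of 0.02 ± 0.07. The groups overlapped for all 3 genes.

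Of the J segments of Lm54, Traj49 passed the test between genotypes and Trbj2-7 did not. Traj49 had 5.69, 6.58, 4.47, 4.08 and 4.74 CPM in CtslΔTEC and 3.57, 3.19, 3.90 and 3.42 CPM in control cells, which did not overlap, with a log2 fold change of 0.54 ± 0.16 and an edgeR adjusted p of 0.053 against the call threshold of 0.1. The Traj49 call was lost without the 3 libraries (0.40 ± 0.19, edgeR adjusted p = 0.34), with the effective length offset, the Y-linked covariate or the block on mouse number, and within the second date alone. Trbj2-7 had 23.7, 55.4, 16.7, 21.2 and 64.4 CPM against 14.9, 25.6, 19.6 and 18.1 CPM, which overlapped, with a log2 fold change of 0.90 ± 0.38 and an edgeR adjusted p of 0.17. The 2 highest values are those of mice 2 and 5, and without the 3 libraries the difference was 0.24 ± 0.16.

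Of the members called between genotypes, all but Traj49 were segments other than those that make up the Lm54 receptor. Of 98 members that passed the low-count filter, 28 were called in unstimulated cells (28.6%), of which 27 were higher and 1 lower in CtslΔTEC, while 14.8% of all 13152 genes tested were called, 6.42% higher and 8.36% lower. The median log2 fold change was 0.53 over the members tested and 0.01 over all genes tested. By type, 17 of 51 Traj, 4 of 20 tested Trav, 2 of 4 tested Trdv, both Trdj, Trdc and 1 of 13 Trbj genes were higher and 1 of 4 tested Trbv genes was lower. Without the 3 libraries 12 members were called, 10 higher and 2 lower, against 6.88% of all genes, 2.79% higher and 4.09% lower, and the 2 that fell were Trbv13-2 and Trbv12-2 (-1.96). Scaling to library totals alone called 33 members higher and 1 lower, and 1163 of all genes higher and 885 lower in place of 844 and 1099.

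All 51 Traj segments had a positive log2 fold change between genotypes in unstimulated cells, with a median of 0.63. The largest changes were those of Traj26 (1.31 ± 0.33, edgeR adjusted p = 0.027), Traj25 (1.05 ± 0.25, edgeR adjusted p = 0.019) and Traj29 (1.03 ± 0.28, edgeR adjusted p = 0.036), with Traj26 at a mean of 1.78 CPM in CtslΔTEC and 0.720 CPM in control cells. Of the 51, 17 were called, against 4 with the effective length offset, where Traj29 was not called (edgeR adjusted p = 0.11). It was also lost within the second date alone (edgeR adjusted p = 0.16). Traj26 and Traj29 were lost with the Y-linked covariate (edgeR adjusted p = 0.67 and 0.45), where 48 of the 51 were positive, and Traj25 was called under each of these settings. All 51 stayed positive without the 3 libraries, where 4 were called (Traj11, Traj12, Traj21 and Traj50) and Traj26, Traj25 and Traj29 were not (edgeR adjusted p = 0.22, 0.19 and 0.26). Reads of neighbouring Traj segments can come from the same germline transcript, so these segments are not 51 independent measurements. The median effective length of Traj segments moves with the fragment length of a library. It was 16.3, 22.1, 30.2, 29.1 and 29 bases in unstimulated CtslΔTEC mice 1 to 5. In unstimulated control mice 1 to 4 it was 25.8, 21.7, 22.7 and 21.5 bases.

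Delta segments, which lie within the alpha locus, all had positive log2 fold changes where tested. Trdc, both Trdj and 2 of 4 tested Trdv genes were called higher. Trdc (chr14:54142851-54148868), the delta constant gene, had 236.1, 218.7, 259.1, 243.4 and 190.9 CPM in CtslΔTEC and 140.0, 142.9, 140.0 and 169.9 CPM in control cells. The groups did not overlap, and the log2 fold change was 0.63 ± 0.10 with an edgeR adjusted p of 0.0014. An exact two-sided permutation test over all splits of the 9 mice into 5 and 4 gave p = 0.0079, the smallest it can give, and 0.063 after adjustment over the 8 segments tested in this way. The J segments Trdj1 (0.76 ± 0.13, edgeR adjusted p = 0.0029) and Trdj2 (0.97 ± 0.17, edgeR adjusted p = 0.0035) were also higher. With the Y-linked covariate Trdc and Trdj1 were still called and Trdj2 was not (edgeR adjusted p = 0.30).

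Trdv5, a V delta gene on the minus strand whose exon overlaps Trdc, rose by 2.20 ± 0.51 on the log2 scale (edgeR adjusted p = 0.016) from at most 0.290 CPM in control to 0.484 to 0.786 CPM in CtslΔTEC cells, and was not called with the Y-linked covariate (edgeR adjusted p = 0.47). Reads of Trdv5 and of Trdc in that overlap cannot be told apart where strand was not used in counting. Of the 6 genes listed as gamma delta T cell markers, 3 were tested and 2, Sox13 and Cd163l1, were lower in CtslΔTEC cells. The list summed to 2.88 to 4.69 CPM in CtslΔTEC and 12.2 to 21.9 CPM in control cells, with the transcription factor Sox13 at 1.17 to 2.10 CPM and 4.73 to 7.69 CPM. The 10 genes of the gamma locus summed to 1.01 to 1.89 CPM and 1.50 to 2.95 CPM, with Tcrg-C3 at 0 in every library. Of 3 gamma genes tested, the constant gene Tcrg-C1 was called lower in CtslΔTEC cells (-1.03 ± 0.25, edgeR adjusted p = 0.022), at 0.399 to 0.7195 CPM against 0.812 to 1.34 CPM, and was not called without the 3 libraries (edgeR adjusted p = 0.25).

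Among V alpha segments other than that of Lm54, Trav14-1 and Trav15-1-dv6-1 showed the clearest difference. Trav14-1, the relative of the Lm54 segment whose sequence is printed above, had 8.22, 11.4, 7.86, 8.27 and 10.1 CPM in CtslΔTEC and 4.17, 4.59, 3.75 and 3.86 CPM in control cells. The groups did not overlap, and the log2 fold change was 1.16 ± 0.14 (edgeR adjusted p = 0.00023). It was 1.05 without the 3 libraries. Trav15-1-dv6-1 (chr14:53559632-53560247), the V gene next to Trav14-1 that can serve alpha and delta chains, rose by 1.21 ± 0.19 (edgeR adjusted p = 0.0017), and Trav15d-1-dv6d-1 by 1.47 ± 0.34 (edgeR adjusted p = 0.016). Without the 3 libraries Trav15-1-dv6-1 was still called (1.20) and Trav15d-1-dv6d-1 was not (1.01, edgeR adjusted p = 0.22). With the Y-linked covariate Trav14-1 was called and these 2 were not (edgeR adjusted p = 0.15 and 0.46).

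Trbv13-2 (chr6:41121396-41121832) was the one member called lower. It had 0.809, 2.04, 1.56, 0.719 and 1.05 CPM in CtslΔTEC and 2.78, 2.45, 2.23 and 3.47 CPM in control cells, without overlap, and a log2 fold change of -1.15 ± 0.30 (edgeR adjusted p = 0.029). The call was lost within the second date alone (edgeR adjusted p = 0.12), with the block on mouse number (0.13) and with the Y-linked covariate (0.55). Its levels in the 3 libraries were within the range of the other libraries, unlike those of Trbv13-1.

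**Figure D3:**
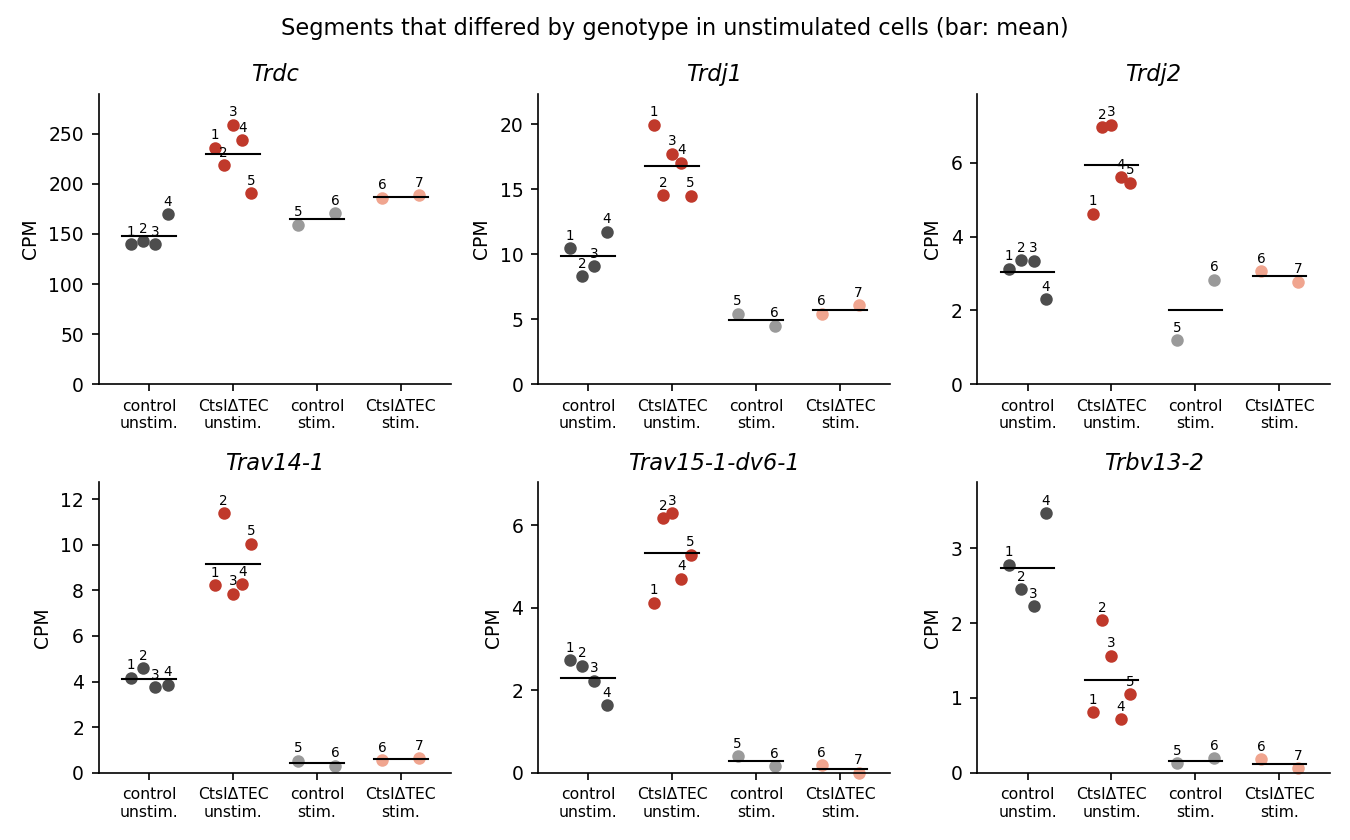
Level in CPM of 6 segments called between genotypes in unstimulated cells, with 1 point per mouse and stimulated mice beside them. Trdc, Trdj1, Trdj2, Trav14-1 and Trav15-1-dv6-1 are higher in all 5 CtslΔTEC mice than in the 4 control mice before stimulation, and Trbv13-2 is lower.

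Markers of CD4 CD8 double-positive (DP) thymocytes, the stage at which the alpha locus is rearranged, moved with these segments. In unstimulated cells 6 of 7 tested genes of the DP list of 8 were higher in CtslΔTEC, and the list summed to 281 to 347 CPM against 94.3 to 124 CPM in control cells, whereas 7 of 8 genes of the mature CD4SP list were lower. The recombinase gene Rag1 (1.82, edgeR adjusted p = 0.033) and the terminal transferase gene Dntt (1.84, edgeR adjusted p = 3.5e-05) were higher, and Poll was lower, among 15 tested genes of recombination and assembly. Rag1 overlapped between genotypes, at 11.9, 4.51, 26.5, 15.8 and 5.16 CPM in CtslΔTEC mice 1 to 5 and 2.78 to 5.13 CPM in control mice. Dntt did not overlap, at 63.9 to 87.8 CPM and 14.3 to 27.0 CPM. None of the 4 CD3 chain genes was called by edgeR or by DESeq2, where 1 (Cd3e, 0.24) had an unadjusted edgeR p of 0.030. The part of these genes, of Y-linked transcripts and of fragment length in the segments' differences was not tested beyond the covariates given with the dependence on processing, where a Y-linked covariate left 4 members called.

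After stimulation the Traj segments nearest to Trac had positive responses with all libraries used, and all 7 Trbj1 segments were lower. Of 103 members tested, 63 were called in control (29 higher, 34 lower) against 67.7% of all 14241 genes tested (32.9% higher, 34.8% lower), and 69 in CtslΔTEC cells (33 higher, 36 lower) against 71.2% of all genes (32.9% higher, 38.2% lower). These shares of members, 61.2% and 67.0%, were below the background. Of the members called lower, 18 in control and 17 in CtslΔTEC cells were Trav genes, and 19 of the 24 Trav genes tested passed the low-count filter through the unstimulated libraries alone. Without the 3 libraries 59 of 100 members were called in control and 63 in CtslΔTEC cells, against 66.6% and 69.4% of all genes. Without control mouse 6, the deeper of the 2 stimulated control libraries, 40 members were called in control, 8 higher and 32 lower. With all 13 libraries and an offset for effective length, 20 were higher and 36 lower in control, with a member median of -0.53 in place of -0.09, and 24 higher and 37 lower in CtslΔTEC cells. With 2 stimulated mice per genotype, an exact permutation test of 2 against 2 between stimulated genotypes cannot give a p below 0.333. The responses were not tested by permutation. All calls with stimulated mice rest on the spread pooled in edgeR over all groups.

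No response of the Lm54 V segments or of Trac and Trbc2 was called. Trbv5 had 405.6 and 350.8 CPM in stimulated CtslΔTEC and 421.5 and 359.2 CPM in stimulated control cells, within the range of the 6 other unstimulated libraries. Trbc2 had 1818 and 1762 CPM and 2088 and 1676 CPM. The response, as stimulated minus unstimulated log2 fold change without the 3 libraries, was 0.27 ± 0.15 in control and 0.08 ± 0.15 in CtslΔTEC cells for Trbv5 and -0.0017 ± 0.13 and -0.08 ± 0.13 for Trbc2. With all libraries it was -1.19 ± 1.04 and -1.78 ± 1.06 for Trbv5 and -0.75 ± 0.70 and -1.26 ± 0.70 for Trbc2.

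Trac had 1073 and 969.9 CPM in stimulated CtslΔTEC and 885.0 and 921.1 CPM in stimulated control cells, and Trav14d-1 had 212.9 and 174.7 CPM and 163.1 and 166.2 CPM. The fitted responses were 0.34 ± 0.19 in control and 0.32 ± 0.18 in CtslΔTEC cells for Trac and 0.31 ± 0.34 and 0.33 ± 0.33 for Trav14d-1. Without the 3 libraries those of Trac were 0.18 in control and 0.14 in CtslΔTEC cells. Traj49 was called in both genotypes (0.92 ± 0.21 in control and 0.57 ± 0.19 in CtslΔTEC cells, the latter not without stimulated CtslΔTEC mouse 7 and neither with the effective length offset), at 6.86 and 8.28 CPM in stimulated CtslΔTEC and 7.41 and 6.10 CPM in stimulated control cells.

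Genes of the first beta cluster fell and those of the second did not pass the test, and the difference between the clusters was itself not tested. Trbc1 had 446.6 and 436.4 CPM in stimulated CtslΔTEC and 502.6 and 488.7 CPM in stimulated control cells, below all 9 unstimulated libraries, with responses of -1.09 ± 0.10 in control (edgeR adjusted p = 1.5e-07) and -1.28 ± 0.10 in CtslΔTEC cells (edgeR adjusted p = 1.8e-08). All 7 Trbj1 segments fell in both genotypes, by 1.20 to 1.81 in control and by 1.25 to 2.26 in CtslΔTEC cells on the log2 scale. Of the 6 Trbj2 segments, none was called in either genotype by edgeR or by DESeq2, and 0 had an unadjusted p below 0.05. Without the 3 libraries Trbj2-1 was lower in control (-0.50) and Trbj2-7 higher in CtslΔTEC cells (0.47), and with the effective length offset 1 of the 6 was lower in control. The share of Trbj counts on Trbj1 went from between 84.8% and 92.6% to between 72.5% and 82.5%.

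**Figure D4:**
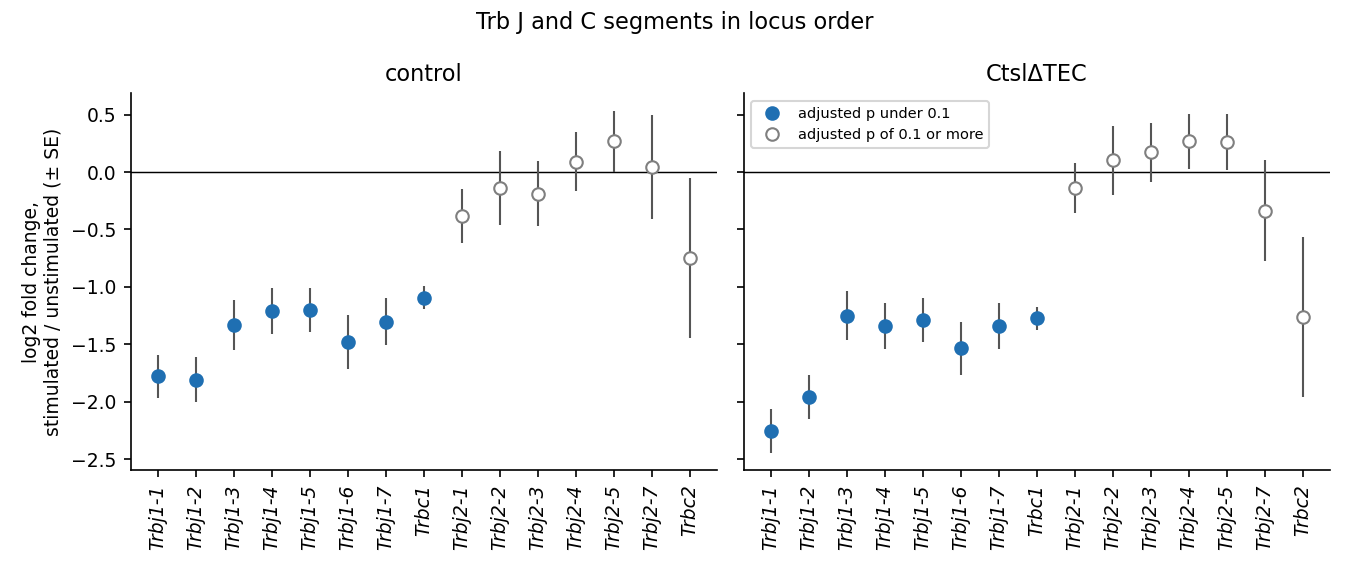
Response to stimulation, as log2 fold change with its standard error from edgeR, of the Trbj1 and Trbj2 segments and their constant genes in control and CtslΔTEC cells. All 7 Trbj1 segments and Trbc1 lie below 0 in both genotypes, whereas no Trbj2 segment passed the test.

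The Traj segments split by their distance from Trac. The 32 segments from Traj37 to Traj2, which lie 2.685 to 39.0 kb upstream of Trac, all had a positive response in both genotypes, with 27 called higher in control (median 1.37) and 31 in CtslΔTEC cells (median 1.23). The rise in control rested largely on 1 library: without stimulated control mouse 6, 27 of the 32 were positive, 6 were called higher and 1 lower, and the median was 0.51. Without stimulated CtslΔTEC mouse 7, 20 were called higher in CtslΔTEC cells, and all 32 stayed positive. Stimulated control mouse 6 had a median Traj effective length of 29.9 bases, against 23.8 bases in stimulated control mouse 5. Y-linked transcripts stood at 388 CPM in mouse 6 and 4.39 CPM in mouse 5, and the part of sex was not tested. With an offset for effective length all 32 were positive in both genotypes, with 19 called higher in control (median 1.03) and 24 in CtslΔTEC cells (median 1.14). Their summed level was 34.1 to 46.2 CPM in unstimulated CtslΔTEC and 21.3 to 26.9 CPM in unstimulated control cells. After stimulation it was 92.6 and 95.7 CPM in CtslΔTEC and 40.0 and 77.8 CPM in control cells, each above all unstimulated libraries of its genotype.

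The 19 segments from Traj59 to Traj38, 39.95 to 64.4 kb upstream of Trac, had a median response of -0.25 in control and -0.24 in CtslΔTEC cells. Of these, 1 was called higher and 3 lower in control, and 2 higher and 4 lower in CtslΔTEC cells. The medians moved with single libraries. The control median was 0.09 without stimulated control mouse 5 and -0.605 without mouse 6. In CtslΔTEC cells it was -0.62 without stimulated CtslΔTEC mouse 6 and -0.19 without mouse 7. Traj59 and Traj58, the most distal pair and the most abundant Traj segments per length, fell by 1.41 and 0.92 in control and by 0.96 and 1.03 in CtslΔTEC cells. The break between Traj38 and Traj37 was placed after the values were seen. Across the 51 segments, which share libraries and often transcripts, Spearman's rho of the response with distance was -0.65 in control and -0.69 in CtslΔTEC cells, and -0.65 and -0.66 without the 3 libraries.

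**Figure D5:**
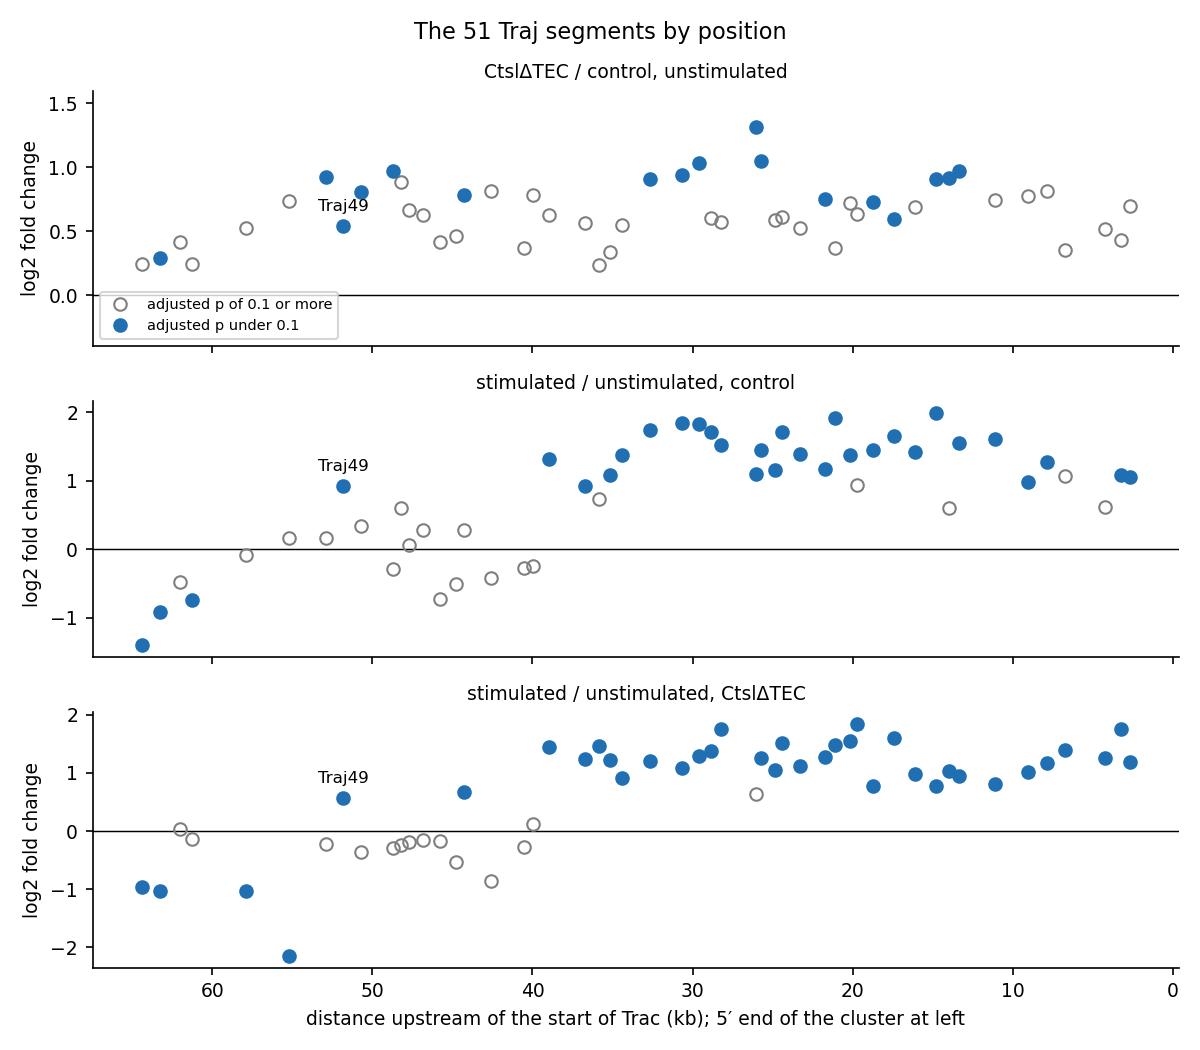
Log2 fold change of each of the 51 Traj segments against its distance upstream of Trac in kb, for the unstimulated genotype difference and for the response to stimulation in control and CtslΔTEC cells. The genotype difference is above 0 at every distance, and with all libraries the responses are above 0 for the 32 segments within 39.0 kb and spread around 0 beyond, while without stimulated control mouse 6 the control response is above 0 for 27 of the 32.

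Most of the V alpha segments other than that of Lm54 that could be tested were lower after stimulation. Of the 108 Trav genes 24 passed the low-count filter, 18 of them lower in control and 17 in CtslΔTEC cells. Because 19 of the 24 passed through the unstimulated libraries alone, the direction of these counts is largely set by the filter and they are given as a description. Without stimulated control mouse 6, 12 of the 28 Trav genes then tested were called lower in control. The genes not called in either genotype were Trav14d-1 and its copy Trav14n-1, Trav14-3, Trav17, Trav6-5 and Trav7n-6. Trav14-3 had 0.722 and 0.569 CPM in stimulated CtslΔTEC and 1.06 and 0.621 CPM in stimulated control cells, against 0.499 to 1.02 CPM unstimulated. Trav14-1 had 0.542 and 0.632 CPM in stimulated CtslΔTEC and 0.529 and 0.311 CPM in stimulated control cells, with responses of -3.94 ± 0.27 and -3.45 ± 0.30. Trav13-1 had estimated counts of 0 and 0.333 in the stimulated CtslΔTEC libraries, which are 0 once rounded and make it at least 9.06-fold lower against a floor of 3 counts over the group, and 2 counts in the stimulated control libraries, a ratio of 21.2-fold lower with a counting interval of 5.87 to 175. The identical copies Trav14d-2 and Trav14n-2 were at least 7.61-fold lower in CtslΔTEC cells.

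Trbv13-2 fell with them, from the levels given above to 0.181 and 0.0632 CPM in CtslΔTEC and 0.132 and 0.194 CPM in control cells. With 2, 1, 1 and 5 counts in the stimulated libraries it passed the low-count filter through the unstimulated ones. Its direction is therefore largely set by the filter too and is given as a description. Of the delta segments, Trdj1 fell by 1.02 in control and by 1.54 in CtslΔTEC cells, and the V segment Trdv2-2 by 1.32 and 1.78. The control response of Trdv2-2 was -1.84 without stimulated control mouse 5 and -0.78 without mouse 6. Trdv5 went the other way in control cells (2.03 ± 0.70, edgeR adjusted p = 0.020), with 10, 0, 4 and 3 counts before and 5 and 13 after stimulation, and was not called in CtslΔTEC cells (0.43 ± 0.57). Trdc had 186.2 and 188.4 CPM in stimulated CtslΔTEC and 159.2 and 171.1 CPM in stimulated control cells, with a called response of -0.29 ± 0.11 in CtslΔTEC cells (edgeR adjusted p = 0.034), not called without stimulated CtslΔTEC mouse 6, and an uncalled one of 0.16 ± 0.12 in control cells. Of 13 factors known to bind TCR enhancers and promoters, 8 were lower and 3 higher in control and 8 lower and 5 higher in CtslΔTEC cells. Of the DP list of 8, 5 were lower and 1 higher in control and 7 lower and 1 higher in CtslΔTEC cells. Over all genes tested, 34.8% were lower and 32.9% higher in control, and 38.2% and 32.9% in CtslΔTEC cells. Ighm, the gene of the IgM heavy chain, had 331.7 to 383.2 CPM in unstimulated and 18.3 to 37.7 CPM in stimulated libraries, while the B cell markers Cd79a, Cd79b, Ms4a1 and Pax5 stayed at or below 0.805 CPM and Ebf1 at or below 1.27 CPM in every library.

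In stimulated cells 3 of 103 members were called between genotypes (2.91%), all higher in CtslΔTEC, where 13.3% of all genes were called, 2.77% higher and 10.6% lower. These were Traj18 (1.54 ± 0.54, edgeR adjusted p = 0.095), Traj41 (1.18 ± 0.38, edgeR adjusted p = 0.067) and Traj4 (1.16 ± 0.39, edgeR adjusted p = 0.083). Traj18 had 4.60 and 2.40 CPM in CtslΔTEC and 0.794 and 1.44 CPM in control cells. Without the 3 unstimulated libraries none of these was called and 2 other members were, Traj2 (0.81) and Trbj1-1 (-0.47), against 11.1% of all genes, and without stimulated control mouse 6 the count was 12. Trdc, called in unstimulated cells, had a stimulated difference of 0.18 ± 0.13 that was not called.

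Whether the response differed between genotypes was tested as an interaction. Of 103 members, 1 was called, where 6.01% of all genes were (1.13% higher, 4.88% lower). Traj52 responded by 2.31 ± 0.70 less on the log2 scale in CtslΔTEC than in control cells (edgeR adjusted p = 0.089), with 0.834, 1.34, 0.633, 0.869 and 1.30 CPM in unstimulated CtslΔTEC and 0.181 and 0.253 CPM in stimulated CtslΔTEC cells. In control cells it had 0.580, 0.841, 0.483 and 0.500 CPM before and 0.397 and 0.815 CPM after stimulation. Its edgeR adjusted p was 0.17 without the 3 libraries, where 0 members and 2.45% of all genes were called. For Trdc, called between genotypes before but not after stimulation, the interaction was -0.45 ± 0.16 and was not called (edgeR adjusted p = 0.16).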

How the data were processed

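RNA of M2 CD4SP thymocytes was measured in 13 libraries. Quantification by the authors was with kallisto on the Ensembl 106 transcripts, and they deposited, for each library, estimated counts, which are not normalized, and TPM, which are scaled for effective length and to 1000000 per library. Here transcripts were paired with genes through GENCODE M21 (GRCm38), which is not the build the authors used, and coordinates and sequences are from it. Estimated counts were summed per gene and rounded, and the 1100 transcripts without a gene took at most 0.461% of a library. After filterByExpr and TMM scaling, edgeR 4.0.16 (R 4.3.3) fitted quasi-likelihood models, p-values were adjusted by Benjamini-Hochberg over all genes, and an adjusted p below 0.1 was a call. The unstimulated comparison used 9 libraries and the others a 4-group model of 13. Levels are CPM with TMM factors over 13 libraries, and log2 CPM for exact permutation tests had a prior count of 2. Floors and counting intervals cover counting error only. Replicates are separate mice.

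Members and gene lists were chosen with earlier results of these data known, and some genes of the lists are not reported here. Named were the Lm54 segments, constant genes, sequence relatives of the Lm54 segments, up to 5 of the most abundant members per locus and type and up to 8 of the largest called changes per comparison. Alternatives were DESeq2 1.42.0, other scalings, filters, covariates, a replicate block and leaving out each mouse. The scripts were tested on simulated data.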

Additional observations from a re-analysis of the deposited data

Results flagged for a closer look

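Values were compared within groups of 4 to 10 mice for a mouse far from the others. Of 36 groups of values examined, 11 held such a mouse by Dixon's criterion, which chance meets in about 1 in 20 groups, and several of them are the same library seen through related genes.

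In unstimulated control cells mouse 2 lay apart for Trbv5 at 2591 CPM (others 306.0 to 346.2), Trbv13-1 at 59.87 CPM (others 0.3479 to 0.409), Trbc2 at 7037 CPM (others 1713 to 2088), and Trav14d-1 and its identical copy Trav14n-1 at 50.09 CPM each (others 152.6 to 166.8). Its shares lay apart too, at 40.3% of Trav counts for Trav14d-1 (others 46.5% to 47.0%), 80.6% with the identical copy (others 93.1% to 93.9%) and 87.8% of Trbc counts for Trbc2 (others 62.4% to 64.2%). CtslΔTEC mice 2 and 5 were also high for Trbv5, Trbv13-1 and Trbc2, and as a pair in a group of 5 neither lay far from its nearest neighbour. Their Trav14d-1 levels, 124.6 and 110.7 CPM, were above that of control mouse 2. The library of control mouse 2 held 28820401 estimated counts, within the range of its group. What these 3 libraries share beyond their date was not tested.

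Control mouse 4 lay apart for Trdv2-2 at 8.996 CPM (others 6.813 to 6.989), for Trdc at 169.9 CPM (others 140.0 to 142.9) and for the Trbj1 share at 88.46% (others 92.16% to 92.37%). All 5 CtslΔTEC mice were above this mouse for Trdc.

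The response of Traj52 differed between genotypes by edgeR's interaction test, at -2.308 on the log2 scale with an edgeR adjusted p of 0.089, from 6 counts in stimulated CtslΔTEC and 24 in stimulated control libraries.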

How the results depend on the processing

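Between unstimulated genotypes (28 members called) the count was 13 with an effective length offset, 17 within the second date alone, 4 (Traj25, Trav14-1, Trdc and Trdj1) with the Y-linked level as a covariate, 12 without CtslΔTEC mice 2 and 5 and control mouse 2, and 19 to 28 when 1 mouse was left out. Date as a term gave 33. Leaving out those 3 libraries and adding Trav14n-1 to Trav14d-1 were chosen after seeing the data. All 28 kept their sign in the offset, date, covariate and 3-library settings and under the block on mouse number. Mouse number as a replicate block gave 15. Same-numbered mice of both genotypes deviated with r = -0.16, 0.35, -0.10 and -0.14, and differently numbered ones with r from -0.32 to 0.45. These values do not show a general pairing by number. The 0.35 is that of CtslΔTEC mouse 2 and control mouse 2, both among the libraries that stood apart. Stimulated groups share only 1 mouse number and could not be blocked. Between stimulated genotypes (3) the count was 0 at a threshold of 0.05, with 13 members at an unadjusted edgeR p below 0.05, 5 with DESeq2, 1 with every gene kept, 5 with the 4 stimulated libraries alone and 1 to 12 without 1 mouse, 12 being without stimulated control mouse 6. A filter of 10 counts in every library gave 25 responses in place of 63 in control and 26 in place of 69 in CtslΔTEC cells, since genes near 0 after stimulation were then not tested, and without 1 mouse the counts were 40 to 68 and 57 to 75. The interaction (1) fell to 0 at a threshold of 0.05, with DESeq2, RLE factors, every gene kept, the length offset or without the 3 libraries, rose to 2 with library totals alone, and was 0 to 1 without 1 mouse. At an unadjusted edgeR p below 0.05 it had 4 members. Single segments called by permutation went from 2 to 0 without the 3 libraries, where p cannot go below 0.1. The cause of these changes was not tested unless given. Library totals alone moved the median response of all genes in CtslΔTEC cells from -0.06 to -0.21. Fewer than 4 counts in every library for 84 members limits what can be said of them.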

Other observations

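The V delta gene Trdv4 responded to stimulation by -0.97 in control and -1.72 in CtslΔTEC cells (edgeR adjusted p = 0.014 and 0.00026), whereas Trdv1, another V delta gene, was not called in either and Trdv5 was called higher in control cells (2.03, edgeR adjusted p = 0.020). Traj2, the segment nearest to Trac, had 3.40 CPM in unstimulated control and 5.52 CPM in unstimulated CtslΔTEC cells and rose by 1.06 and 1.18 on stimulation (edgeR adjusted p = 0.0085 and 0.0020).

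Rag1 counted 81 to 713 reads in the unstimulated libraries although the mice are Rag1-/-, and a count per gene does not show whether the reads lie in the disrupted part.

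Markers of other cell types were also compared between unstimulated genotypes, where 14.8% of all genes were called. Of the genes tested, 1 was higher and 2 lower of 6 for natural killer and innate lymphoid cells, 1 higher and 2 lower of 6 for myeloid cells, 1 higher and 1 lower of 3 for thymic epithelium, 0 of 3 for erythroid cells and 0 of 4 for B cells by edgeR, where 0 and 1 (Cd79a) had an unadjusted p below 0.05.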
